A study of Mus musculus with 16 samples.

Results

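The genes of the proteasome, the protease complex that degrades ubiquitin-tagged proteins, were followed in rod photoreceptors sorted from aging mice. The members are the protein-coding genes whose symbol starts with Psma to Psmg and a number, 48 of the 45594 genes in the authors' gene table, and 2 further genes of this name pattern are not analysed here. They were chosen by name and not by a measured value. Of the 48, 42 passed the filter on low counts (a level of 5 CPM, that is counts scaled to a common library total, or more in 4 or more libraries) and were tested among 12177 genes. The rods came from C57BL/6J (Nrlp-GFP) mice, a reporter strain in which the promoter of Nrl, the gene that specifies rods, drives green fluorescent protein, and the same reporter was carried at every age. Total RNA of the sorted cells was sequenced at 3, 12, 18 and 24 months (3M, 12M, 18M and 24M), with 4 libraries at each age. Library totals were 20579144 to 28791777 estimated counts. Whether a library is from 1 mouse or a pool, and the sex of the mice, were not stated.

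The proteasome has a barrel-shaped core made of outer alpha rings, which gate the entrance, and inner beta rings, which hold the cutting sites. A regulatory cap sits on the barrel: its ATPase ring unfolds the substrate and threads it in, and its non-ATPase subunits bind ubiquitin, remove it and hold the cap together. Other activators can replace the cap, and dedicated chaperones build the rings and the cap. In rods, which make large amounts of membrane and phototransduction protein each day, the complex is known for clearing misfolded proteins, among them mutant rhodopsin.

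Levels of different genes were compared per kilobase of annotated transcript, scaled to a common total over all transcripts of a library. On this scale Psmd4, a ubiquitin receptor of the cap, had the highest mean of the members over the 16 libraries, at 52.8 with a range of 45.0 to 61.8. Psma3, of the alpha ring, followed at 38.2, Psmc2, an ATPase, at 29.9, Psmd1, a scaffold subunit, at 28.7, and Psma4, of the alpha ring, at 28.0. Over the 16 libraries of all ages, the ranges of these 5 genes overlapped from each gene to the next. At 3M alone Psmd4 averaged 53.3 ± 6.62 and Psma3 32.7 ± 3.77 (SD, n = 4 each). The order of neighbours was not tested. Subunits that share a ring had unequal RNA levels, since Psma2 stood at 3.75 and Psma3 at 38.2 although both belong to the same ring. About 8943 bases of Psma2 overlap AW209491 on the same strand, whose counts are 2.11 times those of Psma2. The part of this overlap in the level of Psma2 was not tested. Among the beta genes, Psmb6, which encodes the caspase-like cutting subunit, led at 26.2, and Psmb5, the chymotrypsin-like one, stood at 6.90. Levels per kilobase count all annotated transcripts of a gene, coding or not, which raises genes with abundant intron-retaining transcripts such as Psma3 and Psmc2.

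**Figure D1:**
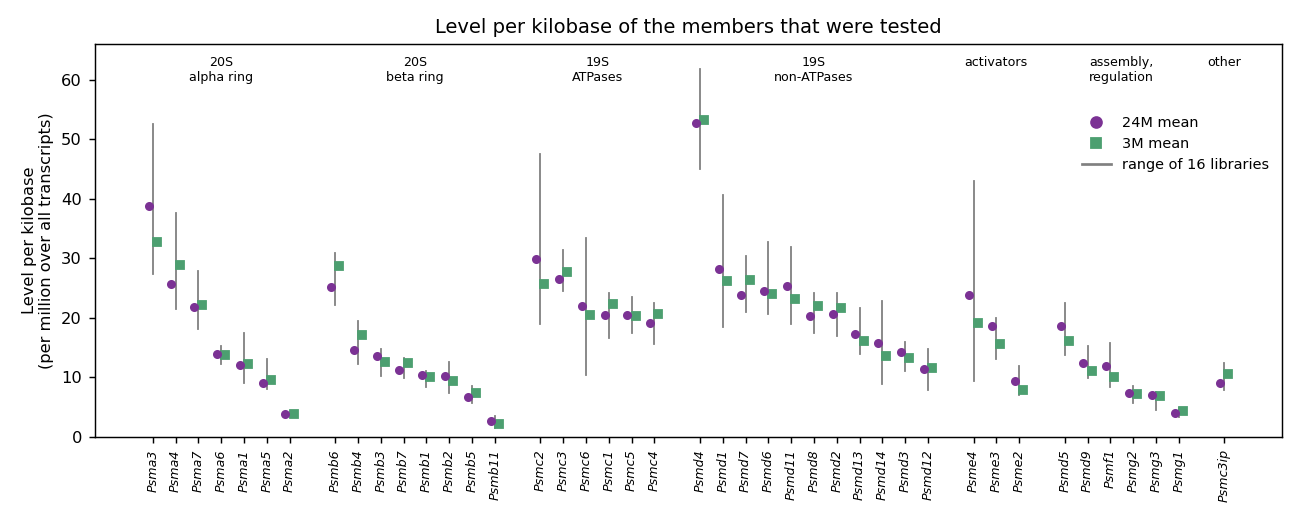
Level per kilobase, scaled to a common total over all transcripts, of the 42 tested members, grouped by role, with the 24M mean as a circle, the 3M mean as a square and the range over the 16 libraries as a grey line. Psmd4 stands highest with a mean of 52.8 over all libraries, and Psmb11 is lowest of the tested members at 2.39.

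6 members were not tested because they were too low. Psma8, the testis form of an alpha subunit, was at 0 to 0.0432 CPM. Psme2b, a copy of the activator gene Psme2 whose 837 bases all lie within the span of Gm12185, held at most 0.446 CPM. Psmb10, an inducible form of the trypsin-like cutting subunit, averaged 1.96 ± 0.412 CPM at 24M and 2.11 ± 0.455 CPM at 3M (SD, n = 4 each). Psme1, a partner of Psme2 in an interferon-inducible activator, averaged 3.43 ± 1.19 CPM at 24M and 2.70 ± 1.13 CPM at 3M. Psmg4, an assembly chaperone, stood at 4.71, 4.09, 4.36 and 3.85 CPM in the 24M libraries, against 5.14, 5.06, 4.89 and 5.45 CPM in the 3M libraries. Psmd10, a chaperone of the cap also known as gankyrin, stood at 3.18, 3.05, 2.83 and 2.89 CPM in the 24M libraries, against 4.38, 4.45, 3.95 and 3.67 CPM in the 3M libraries. In both genes all 4 of the 24M values lay below all 4 of the 3M values, as in 3.61% of the 5506 genes that pass a minimum of 1 CPM but not of 5. With that lower minimum the log2 fold change of Psmd10 was -0.48 (SE 0.158) with an adjusted p of 0.13 in edgeR, so it was not called. Psmb11, known as the beta subunit of the thymus proteasome, passed the filter at 13.8 CPM over all libraries, all assigned to its only annotated transcript.

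Promoters of 40 members were found in RefSeq (GRCm38.p6), in windows of 250 bases before to 50 bases after a start, against 27025 genes with such a window. They were searched on both strands for motifs of factors that act on housekeeping genes and on proteasome genes. A gene could have several windows and was counted once if any of them held the motif. The ETS core CCGGAAG lay in 15 of the 40 members, or 37.5%, against 9.93% of all genes. The core motif of nuclear respiratory factor lay in 7 members, or 17.5%, against 5.19%. The antioxidant response element TGACNNNGC, which the proteasome regulator encoded by Nfe2l1 binds, lay in 6 members, or 15%, against 14% of all genes, and CCAAT lay in 14, or 35%, against 41.1%. The 27025 genes were not limited to genes tested here, while 35 of the 40 members were tested. Shares over the tested genes alone were not taken. A match is a description of letters and not a bound site. The 250 upstream bases of 5 members, picked from those described in the age comparisons, are shown 5′ to 3′ on the gene's own strand, with the matches in capitals. Psma4 lies at chr9:54950609-54950858 on the plus strand, Psmc4 at chr7:28050093-28050342 on the minus strand, Psmb6 at chr11:70525107-70525356, Psmd12 at chr11:107479278-107479527 and Psmc1 at chr12:100109952-100110201, the last 3 on the plus strand. In Psma4 and Psmc4 the capitals mark the nuclear respiratory factor core.
Psma4: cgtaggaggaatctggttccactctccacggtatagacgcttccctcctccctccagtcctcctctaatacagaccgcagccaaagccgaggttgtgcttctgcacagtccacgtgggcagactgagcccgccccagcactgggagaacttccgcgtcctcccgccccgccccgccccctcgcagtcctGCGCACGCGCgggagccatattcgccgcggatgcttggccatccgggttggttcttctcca
Psmc4: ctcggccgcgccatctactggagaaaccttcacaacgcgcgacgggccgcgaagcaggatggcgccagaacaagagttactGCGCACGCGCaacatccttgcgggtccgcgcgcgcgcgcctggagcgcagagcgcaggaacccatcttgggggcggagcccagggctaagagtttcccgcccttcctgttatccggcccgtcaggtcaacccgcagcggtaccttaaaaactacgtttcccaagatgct
In Psmb6 they mark the antioxidant response element, which ends at the base before the start, and in Psmd12 that element on the minus strand together with an ETS core on the minus strand.
Psmb6: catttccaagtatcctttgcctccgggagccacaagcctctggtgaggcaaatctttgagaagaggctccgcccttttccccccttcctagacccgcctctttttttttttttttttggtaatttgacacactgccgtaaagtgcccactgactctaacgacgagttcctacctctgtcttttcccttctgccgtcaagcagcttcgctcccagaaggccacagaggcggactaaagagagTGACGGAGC
Psmd12: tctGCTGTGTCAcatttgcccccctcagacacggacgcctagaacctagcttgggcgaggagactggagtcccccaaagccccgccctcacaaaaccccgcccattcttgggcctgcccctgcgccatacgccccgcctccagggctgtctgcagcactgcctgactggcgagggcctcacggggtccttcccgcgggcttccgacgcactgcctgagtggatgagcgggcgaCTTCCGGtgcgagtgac
In Psmc1 they mark a CCAAT box and an ETS core on the minus strand.
Psmc1: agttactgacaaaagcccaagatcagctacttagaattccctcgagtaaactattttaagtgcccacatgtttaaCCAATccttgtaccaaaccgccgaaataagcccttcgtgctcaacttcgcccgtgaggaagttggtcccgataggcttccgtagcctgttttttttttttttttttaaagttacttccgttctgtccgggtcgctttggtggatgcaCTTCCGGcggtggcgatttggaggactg

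3 libraries bear on many of the results: 12M replicate 4, 18M replicate 3 and 24M replicate 3. They are left out of the authors' normalized table, which holds 13 libraries, and the sources used here do not say why. For each library the median over the 42 tested members of the log2 difference from the mean of the 3M libraries was taken. It was -0.02, -0.00, -0.02 and 0.04 at 3M, -0.25, -0.29, -0.28 and 0.17 at 12M, -0.12, -0.04, -0.32 and -0.11 at 18M, and -0.35, -0.10, 0.04 and -0.24 at 24M, in the order of replicates 1 to 4. 12M replicate 4 and 24M replicate 3 are thus above the other libraries of their age, and 18M replicate 3 is below its own. The same libraries lie at the ends of the range of the length slope. For each library it is the change, per doubling of transcript length, of the genes' log2 CPM less each gene's mean over the 16 libraries. It was fitted over the 12170 tested genes with a known length. This slope was -0.0474 in 12M replicate 4, 0.0839 in 18M replicate 3 and -0.0815 in 24M replicate 3, against -0.0436 to 0.0749 in the other 13. Over the 16 libraries the members' median and the length slope had a Pearson r of -0.904 and a rank correlation of -0.873, given as a description, since both come from the same libraries and the same log2 CPM. With the slope on GC content r was 0.846. The members are short, with a median transcript length of 1365 bases against 2677 for all genes tested, and their median GC content of 49.6% is near the 49.0% of all. The part of the length and GC slopes in the age differences was not tested apart from the fits that carry a slope as a covariate.

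**Figure D2:**
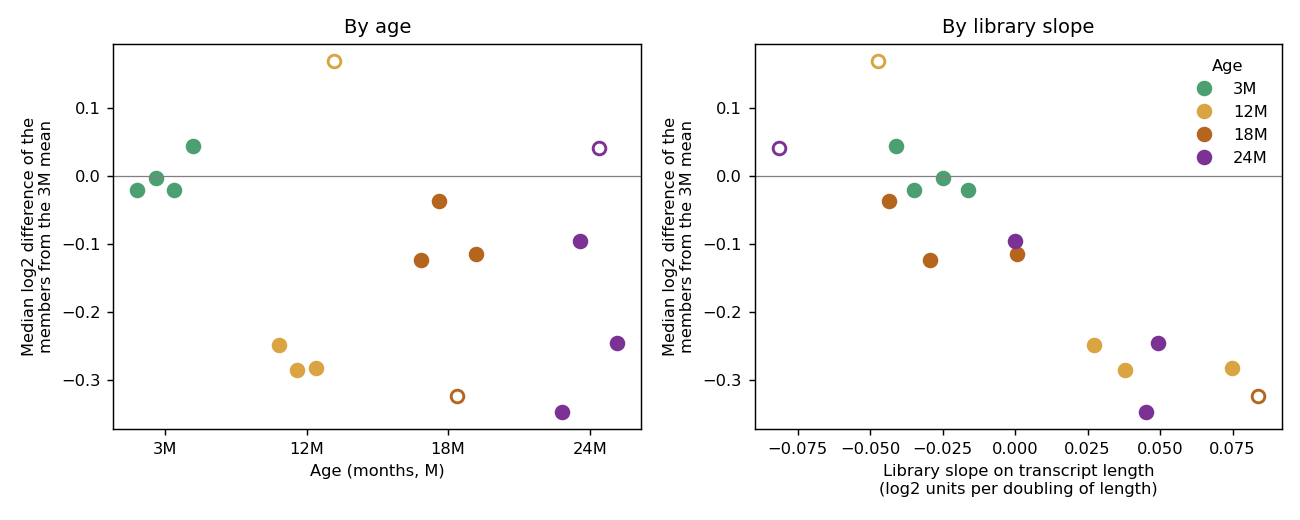
Median log2 difference of the 42 tested members from the mean of the 3M libraries, 1 point per library, by age (left) and by the library's slope on transcript length in log2 units per doubling (right). Open points are the 3 libraries left out of the authors' normalized table; the other 12M libraries lie at -0.25 to -0.29, and the points fall from upper left to lower right in the right panel (r = -0.904).

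The widest comparison, 24M against 3M, asks which rod transcripts differ between the oldest and the youngest animals. Most proteasome genes had slightly lower means at 24M, and Psma4, an alpha ring gene, was the member that passed the test over all 16 libraries. The fold change was negative for 35 of 42 members, against 47.3% of all genes tested, with a median log2 fold change of -0.15 against 0.01 for all genes. By the edgeR quasi-likelihood test 1 member was called lower and 0 higher, where 1.6% of all genes were called lower and 323 of 12177 higher. An unadjusted p under 0.05 was reached by 7 of the 42 members, against 14% of all genes. DESeq2 called the same member, where it called 2.78% of all genes lower. The summed level of the 48 members was 1450, 1576, 1591 and 1471 CPM in the 24M libraries, against 1658, 1699, 1644 and 1661 CPM in the 3M libraries, and these values do not overlap. In bulk RNA, fewer cells with a transcript and less of it per cell cannot be told apart. The direction rests on the scale: per kilobase, where the median of all genes was 0.21 higher at 24M in log2, only 19 of 42 members were lower outright, and 33 were below that median. Relative to the median of all genes, the members' median was -0.16 in CPM and -0.19 per kilobase.

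Psma4, a subunit of the alpha ring (ENSMUSG00000032301, chromosome 9, 54950790 to 54958030), stood at 35.8, 39.1, 40.7 and 36.7 CPM in the 24M libraries, against 48.3, 49.9, 47.2 and 51.7 CPM in the 3M libraries. The highest 24M library lay below the lowest 3M library. It averaged 42.2 ± 5.72 CPM at 12M and 44.6 ± 3.01 CPM at 18M (SD, n = 4 each), and 12M replicate 4, at 50.8 CPM, was inside the 3M range. Its log2 fold change at 24M was -0.37 (SE 0.087, adjusted p = 0.0202), and with age as a linear term it fell by 0.18 log2 units per year (adjusted p = 0.0472), where 1.95% of all genes were called lower. It was also called from its protein-coding transcripts alone (log2 fold change -0.36, adjusted p = 0.0178), with the length slope as a covariate (-0.32, adjusted p = 0.0045) and in the 13 libraries (-0.41, adjusted p = 0.000473). The 24M call was lost without 3M replicate 2 (adjusted p = 0.0658), 3M replicate 4 (0.0684), 24M replicate 1 (0.0782) or 24M replicate 4 (0.071), with log2 fold changes of -0.34 to -0.37. It was also lost with no filter on low counts (0.0867) and with the length slope in the 13 libraries (0.0838). The linear call was lost in 9 of the 16 fits that leave out a library and in 6 of the 14 other alternatives, with adjusted p-values of up to 0.139. About 209 bases of it overlap AY074887 on the opposite strand, whose counts are 0.1355 of its own, and the sources used here do not give the strand setting of the counting.

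**Figure D3:**
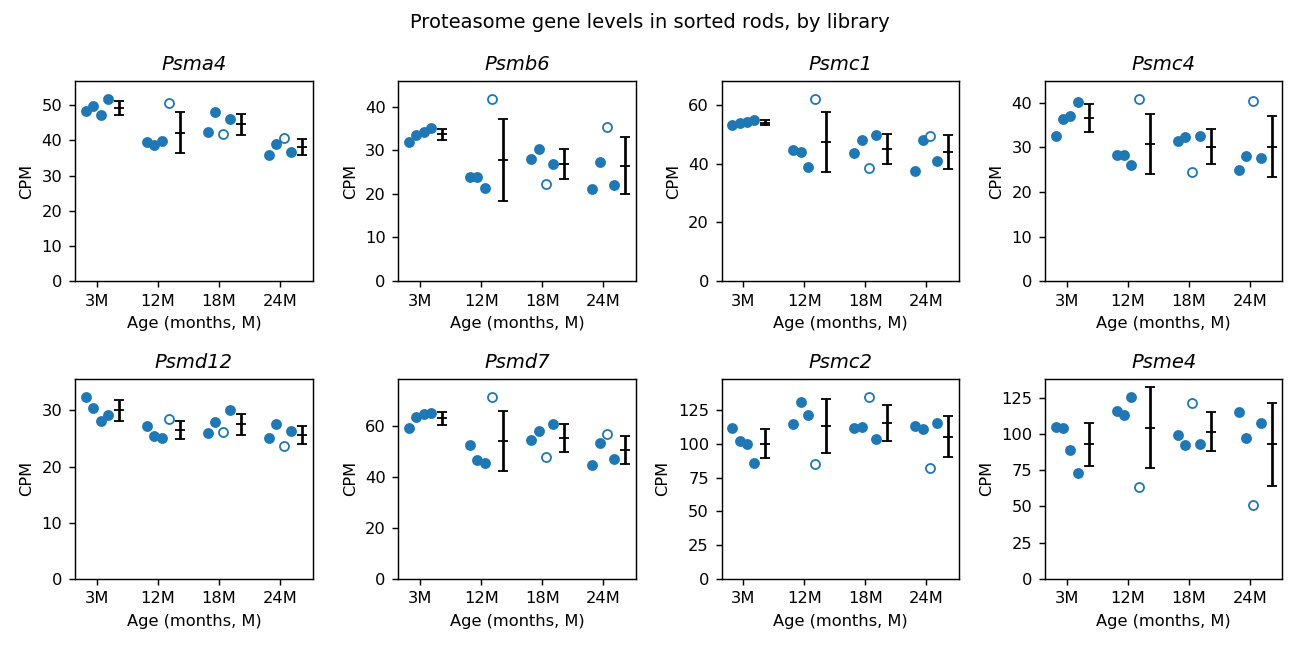
CPM of 8 members in each library at 3M, 12M, 18M and 24M, with the mean and SD (n = 4) beside the points; open points are the 3 libraries left out of the authors' normalized table. All 24M libraries of Psma4 lie below its 3M libraries, the open 12M point of Psmb6 stands at 41.7 CPM above the 3M range, and Psmc2 and Psme4 run the other way in the same open libraries.

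The other alpha ring genes, which gate the core, followed Psma4 in sign but were not called. Of the ring’s 7 tested genes, Psma4 included, 6 were negative, with a median log2 fold change of -0.21. Psma1 had 15.5, 18.8, 16.2 and 17.7 CPM in the 24M libraries, against 22.4, 20.8, 18.6 and 18.1 CPM in the 3M libraries. Its groups overlapped, and its log2 fold change was -0.23 (SE 0.093, adjusted p = 0.25). Psma3 was the exception in sign, with 57.7 ± 4.46 CPM at 24M and 55.9 ± 4.53 CPM at 3M (SD, n = 4 each). Psma5 had 13.5 ± 2.10 CPM at 24M and 16.3 ± 0.971 CPM at 3M, Psma7 had 26.4 ± 3.80 CPM at 24M and 30.2 ± 1.39 CPM at 3M, and Psma2 and Psma6 had smaller mean differences. Summed over the ring, the level was 185 ± 11.3 CPM at 24M and 208 ± 7.54 CPM at 3M.

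No beta ring gene was called in the 16 libraries, although 7 of 8 tested members were negative, with a median of -0.18. Psmb6 had 21.0, 27.4, 35.4 and 22.1 CPM in the 24M libraries, against 31.9, 33.5, 34.1 and 35.0 CPM in the 3M libraries. 24M replicate 3 was above all 3M libraries, and the other 3 were below all of them. Its log2 fold change was -0.35 (SE 0.195, adjusted p = 0.482). Psmb7, the trypsin-like cutting subunit, had 20.1, 25.1, 25.6 and 18.8 CPM at 24M, against 25.9, 25.4, 26.5 and 26.5 CPM at 3M. Its ranges overlapped through the same library, and its log2 fold change was -0.22 (SE 0.130, adjusted p = 0.505). About 6571 bases of Psmb7 overlap Nek6 on the opposite strand, whose counts are 0.883 of its own. Psmb4, a subunit without a cutting site, had 17.5 ± 4.41 CPM at 24M and 21.2 ± 1.80 CPM at 3M, and Psmb5 had 8.15 ± 1.62 CPM at 24M and 10.03 ± 1.57 CPM at 3M. Summed over the ring, the level was 143 ± 22.1 CPM at 24M and 162 ± 3.89 CPM at 3M. Psmb11 was the positive member, at 14.2 ± 1.71 CPM at 24M and 13.3 ± 1.24 CPM at 3M (SD, n = 4 each).

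Among the 6 ATPases of the cap, 5 were negative and 0 called, with a median of -0.19. Psmc1 had 37.5, 48.2, 49.3 and 40.9 CPM in the 24M libraries, against 53.2, 53.8, 54.1 and 54.9 CPM in the 3M libraries. The 24M libraries lay below all 3M libraries and were more widely spread. Its log2 fold change was -0.30 (SE 0.129, adjusted p = 0.298). Psmc4 had 24.9, 28.1, 40.3 and 27.6 CPM at 24M, against 32.5, 36.4, 37.1 and 40.2 CPM at 3M. Here 24M replicate 3 was the highest of the 8 values and the other 24M libraries were the lowest 3, with a log2 fold change of -0.28 (adjusted p = 0.503, SE 0.161). Psmc2 had 113, 111, 82.4 and 116 CPM at 24M, against 112, 103, 100.0 and 86.2 CPM at 3M. In Psmc2 24M replicate 3 was the lowest library, the reverse of Psmc4, and Psmc6 showed the same, with 73.8, 70.9, 39.2 and 68.7 CPM at 24M. The sum over the 6 ATPase genes was 322 ± 13.7 CPM at 24M and 351 ± 15.8 CPM at 3M.

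All 11 non-ATPase subunits of the cap were negative at 24M, from -0.32 to -0.01, and 0 were called. Psmd12, which helps to hold the lid of the cap together, had 25.1, 27.5, 23.6 and 26.3 CPM in the 24M libraries, against 32.4, 30.5, 28.1 and 29.2 CPM in the 3M libraries. Its groups did not overlap and its spread was small, with a log2 fold change of -0.23 (adjusted p = 0.137, SE 0.078). Psmd7, the partner of the deubiquitinating subunit encoded by Psmd14, had 44.8, 53.4, 56.9 and 47.2 CPM at 24M, against 59.3, 63.6, 64.6 and 65.0 CPM at 3M. These did not overlap either, and its log2 fold change was -0.32 (SE 0.127, adjusted p = 0.232). Psmd14 itself had 21.1 ± 4.00 CPM at 24M and 22.7 ± 3.04 CPM at 3M, and Psmd4 had 87.3 ± 18.1 CPM at 24M and 94.5 ± 7.37 CPM at 3M (SD, n = 4 each). Psmd2, a scaffold subunit that docks ubiquitin shuttles, had 63.2 ± 13.2 CPM at 24M and 75.2 ± 6.37 CPM at 3M, and Psmd8 had 32.4 ± 8.07 CPM at 24M and 39.6 ± 2.96 CPM at 3M. The sum over the 11 genes was 545 ± 48.8 CPM at 24M and 611 ± 18.7 CPM at 3M. Over all roles, 5 members lay wholly below 3M at 24M and 0 wholly above. Of the 12177 genes tested, 5.32% lay wholly below and 643 genes wholly above. The 5 members were Psma4, Psmc1, Psmd12, Psmd6 and Psmd7, that is 1 alpha subunit, 1 ATPase and 3 non-ATPase subunits.

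Of the 3 tested activators that can take the place of the cap, 1 was negative and 0 were called, with a median of 0.05. Psme2 had 6.76, 7.19, 10.1 and 7.93 CPM in the 24M libraries, against 6.56, 7.24, 7.86 and 8.39 CPM in the 3M libraries, with a log2 fold change of 0.09 (adjusted p = 0.868, SE 0.141). Psme3, a nuclear activator, had 41.9, 42.4, 51.3 and 39.6 CPM at 24M, against 35.99, 42.1, 45.7 and 46.1 CPM at 3M, with 0.05 (SE 0.105, adjusted p = 0.925). The groups overlapped in both genes. Psme4, a large activator known from sperm chromatin, had 115, 97.3, 51.2 and 107 CPM at 24M, against 105, 104, 88.6 and 73.2 CPM at 3M. Its lowest value was 24M replicate 3, and its log2 fold change was -0.00 (SE 0.232).

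Of the 6 tested assembly and regulatory genes, 4 were negative, with a median of -0.09. Psmg1, a partner in a chaperone dimer that builds the alpha ring, had 5.43, 5.22, 6.68 and 4.59 CPM in the 24M libraries, against 7.40, 5.77, 7.17 and 7.61 CPM in the 3M libraries. Its groups overlapped through 24M replicate 3, and its log2 fold change was -0.35 (SE 0.143, adjusted p = 0.252). Its partner Psmg2 had 9.25, 10.3, 12.3 and 9.66 CPM at 24M, against 11.8, 11.5, 11.3 and 11.4 CPM at 3M, with a log2 fold change of -0.15 (adjusted p = 0.734, SE 0.136). Psmd5, a chaperone of the cap, had 55.4 ± 3.03 CPM at 24M and 55.1 ± 3.21 CPM at 3M, and Psmf1, an inhibitor of the core in biochemical assays, had 38.6 ± 2.38 CPM at 24M and 37.1 ± 1.70 CPM at 3M (SD, n = 4 each). Psmc3ip matches the name pattern but encodes a meiotic recombination factor and no subunit. It had 11.3, 12.7, 14.5 and 11.2 CPM at 24M, against 14.4, 16.1, 16.9 and 17.9 CPM at 3M, with a log2 fold change of -0.40 (adjusted p = 0.198, SE 0.150). Its ranges overlap through 24M replicate 3 and 3M replicate 1, and without 12M replicate 4 in the shared estimate of spread it was called (adjusted p = 0.0442). About 385 bases of it overlap Mlx on the opposite strand, whose counts nearly equal its own.

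**Figure D4:**
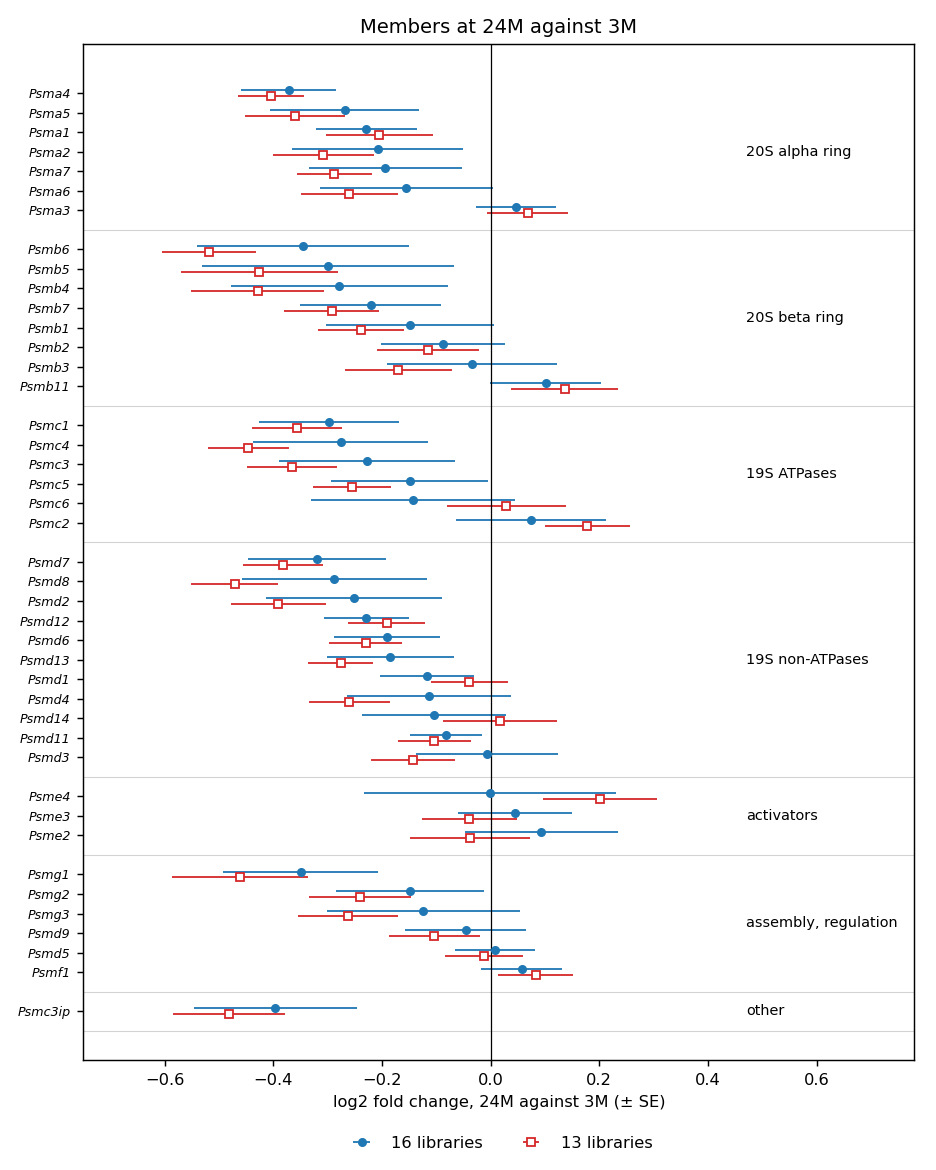
log2 fold change (± SE) of each tested member at 24M against 3M, by role, in all 16 libraries (filled circles) and in the 13 that the authors' normalized table keeps (open squares). Most points lie left of 0 in both fits, all 11 non-ATPase genes do so in the 16 libraries, and the activators lie around 0.

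When the fit kept only those 13 libraries, many more members passed the test at 24M against 3M. There 22 were called lower and 0 higher, where 11.4% of all genes were called lower and 1470 of 12050 higher. The members' median log2 fold change was -0.25 against 0.01 for all genes. The 22 were 5 of 7 alpha, 5 of 8 beta, 4 of 6 ATPase and 6 of 11 non-ATPase genes, 1 of 6 assembly genes, 0 of 3 activators, and Psmc3ip. The largest fall was in Psmb6 (log2 fold change -0.52, SE 0.087, adjusted p = 0.001), followed by Psmc3ip (-0.48, SE 0.103, adjusted p = 0.00523) and Psmd8, a non-ATPase subunit (-0.47, SE 0.080, adjusted p = 0.00116). Wholly below 3M lay 21 members, where 14.4% of all genes did, and wholly above 0, where 1944 of 12050 genes did. With the length slope of each library as a covariate in the same 13 libraries, 0 members were called, where 0.797% of all genes were called lower, and the median was -0.10. An unadjusted p under 0.05 was reached there by 5 of the 42 members, against 14% of all genes. The 24M libraries kept there had slopes of 0.0453, -0.0002 and 0.0493, and the 3M libraries of -0.0161, -0.0249, -0.0349 and -0.041, so age and slope are partly the same contrast and cannot be fully told apart.

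At 12M against 3M the members' median was -0.15 in the 16 libraries, with 35 negative, and 0 members were called, where 0.411% of all genes were called lower. An unadjusted p under 0.05 was reached by 5 of the 42, against 9.15% of all genes, and DESeq2 also called 0. The 4 libraries were split: Psmb6 had 23.8, 23.8, 21.3 and 41.7 CPM at 12M, against 31.9 to 35.0 CPM at 3M. Replicates 1 to 3 lay below every 3M library and replicate 4 above every one. Without replicate 4 alone, 4 members were called lower, where 2.13% of all genes were: Psma4 (adjusted p = 0.0192), Psmc3ip (0.0161), Psmd7 (0.0409) and Psmg3 (0.0416). In the 13 libraries, which leave out that replicate, 26 members were called lower, where 18.8% of all genes were, and 2 higher, where 19.5% of all genes were. The largest falls were in Psmg3, an assembly chaperone (log2 fold change -0.58, SE 0.093, adjusted p = 0.000974), Psmb4, of the beta ring (-0.56, SE 0.123, adjusted p = 0.00531) and Psmc3ip (-0.56, SE 0.103, adjusted p = 0.00236). The 2 called higher were Psmc2 (0.29, SE 0.078, adjusted p = 0.0125) and Psme4 (0.35, SE 0.105, adjusted p = 0.0201). 27 members lay wholly below 3M, where 20.2% of all genes did, and 2 wholly above, where 2511 of 12050 genes did. This comparison and that of 24M use the same 3M libraries. With the length slope as a covariate in the 13 libraries 0 were called at 12M, where 0.0664% of all genes were called lower and 0.382% higher.

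At 18M against 3M the median was -0.16, 35 members were negative and 0 were called, where 0.961% of all genes were called lower. An unadjusted p under 0.05 was reached by 2 of the 42, against 12.4% of all genes, and DESeq2 called 0. 7 members lay wholly below 3M, where 6.46% of all genes did: Psma2 and Psma7 of the alpha ring, Psmb2, Psmb4, Psmb6 and Psmb7 of the beta ring, and Psmc1. Wholly above lay 0, where 879 of 12177 genes did. Psmb4 had 16.2, 18.0, 14.6 and 16.6 CPM at 18M, against 19.98, 23.4, 19.5 and 22.0 CPM at 3M, and Psmb7 had 22.4, 23.1, 18.7 and 21.3 CPM at 18M, against 25.9, 25.4, 26.5 and 26.5 CPM at 3M. In both, 18M replicate 3 was the lowest library. In the 13 libraries, without it, 0 members were called, where 2.17% of all genes were called lower, and the median was -0.10. Between the later ages the members' medians were -0.02 for 18M against 12M and -0.02 for 24M against 18M, and edgeR and DESeq2 called 0 in either, with 0 and 2 members at an unadjusted p under 0.05, against 2.23% and 5.58% of all genes. The test for any difference among the 4 ages called 0 members, where 2.82% of all genes were called. In it 2 members had an unadjusted p under 0.05, against 10.8% of all genes. DESeq2 called 1, Psma4, where 2.28% of all genes were called and lower at 24M than at 3M.

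The members did not all follow the same libraries. Over the 16 libraries, the log2 level of 34 tested members had a negative r with the length slope, -0.242 to -0.939, and that of 8 had a positive one. The 8 were Psme4 (r = 0.831), Psmc2 (0.823), Psmc6 (0.659), Psma3 (0.557), Psmb11 (0.542), Psmf1 (0.404), Psmd14 (0.36) and Psmd1 (0.25). These are descriptions over libraries that share the fit of the slope. The 8 had a median transcript length of 2850 bases and a GC content of 43.5%, against 1326 bases and 50.9% for the 34. Their median log2 fold change at 24M was 0.02, against -0.20 for the 34. Over the 42 members the 24M fold change and the log2 transcript length had r = 0.478.

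The total RNA libraries also hold transcripts that retain introns, and in some members these make up most of the counts. In Psmc2 the intron-retaining transcript Psmc2-202 held 68.5% of the gene's counts over the 16 libraries, in Psmf1 Psmf1-203 held 58.4%, and in Psma3 Psma3-203 held 52.6%. In Psma4, by contrast, 89.6% came from the main coding transcript. 32 members had both coding and other transcripts, and in 26 of them the mean coding share was lower at 24M than at 3M, with a median difference of -1.24 percentage points against -0.52 over 6163 genes. In the 16 libraries 0 members had coding shares wholly apart between the ages, where 5.05% of all such genes were wholly lower and 1.69% wholly higher. Psmb7 had a coding share of 63.1% ± 7.63 at 24M and 73.4% ± 3.37 at 3M, Psmc2 of 31.1% ± 7.15 at 24M and 37.8% ± 3.60 at 3M, and Psmd13, a non-ATPase subunit, of 59.8% ± 2.79 at 24M and 67.0% ± 2.76 at 3M (SD, n = 4 each). These 3 genes were chosen because their 24M libraries other than replicate 3 lay wholly below 3M, where 10.2% of all such genes did. In the same libraries Psmd5 lay wholly above 3M, where 3.25% did. Among 32 members these counts of 3 and 1 are near the shares over all genes, so they set the members apart in neither direction. From coding transcripts alone, Psmc2 had a log2 fold change of -0.20 (adjusted p = 0.181, SE 0.076), against 0.07 from all its transcripts, so its sign depends on which transcripts are summed. Psmb7 had -0.39 (SE 0.179, adjusted p = 0.3), against -0.22. These shares are estimates, since reads in sequence that transcripts have in common were divided between them.

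**Figure D5:**
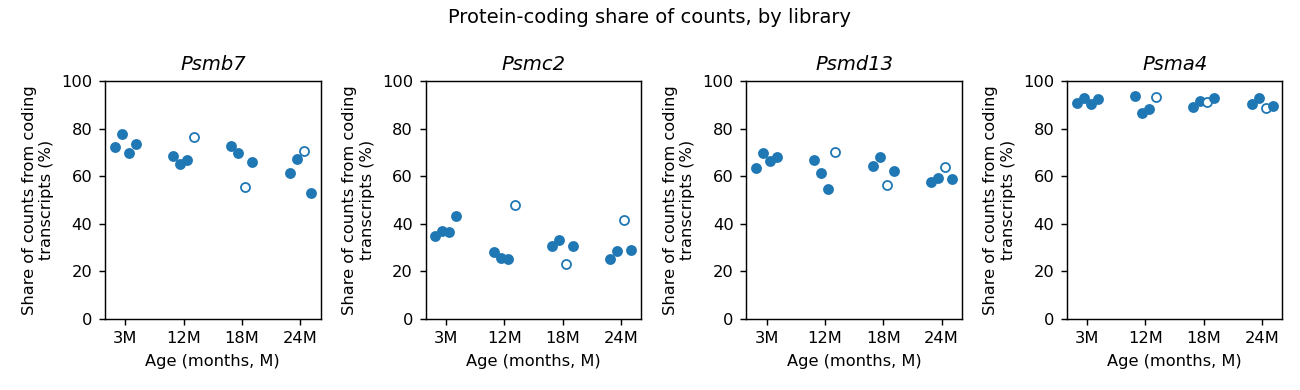
Share of a gene's estimated counts that came from protein-coding transcripts, in percent, for Psmb7, Psmc2, Psmd13 and Psma4 in each library by age; open points are the 3 libraries left out of the authors' normalized table. In Psmb7, Psmc2 and Psmd13, picked for this, the filled 24M points lie below the 3M points, as in 10.2% of all genes with both kinds of transcript. Psma4 stays near 90.4% at 24M and 91.6% at 3M.

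Of 40 further genes of the ubiquitin and proteasome pathway, 39 were tested, and edgeR called 0 in any of the 7 tests. An unadjusted p under 0.05 was reached by 0 to 2 of them, against 2.23% to 14.6% of all genes. DESeq2 called Rad23b, 1 of the 39, at 24M and 12M against 3M and for any difference. Of all genes DESeq2 called 2.78% lower at 24M and 0.813% lower at 12M. For any difference it called 2.28% that were lower at 24M than at 3M. The median log2 fold change of the 39 at 24M was -0.05, with 30 negative. Rad23b, a shuttle that brings ubiquitinated proteins to the cap, had the smallest p, with 61.7 ± 2.46 CPM at 24M and 71.0 ± 2.87 CPM at 3M (log2 fold change -0.20, SE 0.062, adjusted p = 0.094). Rps27a and Ubb, which both encode ubiquitin, had -0.36 (SE 0.162, adjusted p = 0.322) and -0.38 (SE 0.217, adjusted p = 0.493), and Sem1, a small cap subunit named outside the Psm pattern, had -0.22 (SE 0.116, adjusted p = 0.446). In the 13 libraries 5 of the 39 were called lower at 24M, where 11.4% of all genes were. Among them were Ubb (log2 fold change -0.49), Rps27a (-0.42), the core assembly factor Pomp (-0.29) and Rad23b (-0.19). The peptidase gene Tpp2 (0.22) was the 1 called higher, where 1470 of 12050 genes were. Nfe2l1, the transcription factor that raises proteasome genes when the complex is inhibited, had 79.7 ± 10.3 CPM at 24M and 77.3 ± 10.4 CPM at 3M, with a log2 fold change of 0.04 (adjusted p = 0.941, SE 0.125).

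Rod markers (12 genes) summed to 33600 to 43900 CPM at 12M, 30500 to 36600 CPM at 18M and 30800 to 40100 CPM at 24M, against 38300 to 42500 CPM at 3M. At 18M they lay wholly below 3M, and at 24M the ranges overlapped. Summed markers were 351 to 403 CPM at 24M and 367 to 417 CPM at 3M for bipolar cells, and 59.1 to 78.7 CPM at 24M and 47.1 to 96.5 CPM at 3M for cones. Müller glia markers summed to 167 to 287 CPM at 24M and 126 to 257 CPM at 3M, with up to 456 CPM in a 12M library. Of microglia 6 of 9 markers, and of pigment epithelium 4 of 5, were under 1 CPM. The part of rod content and of other cells in the members' differences was not tested.

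The authors' deposited table of comparisons lists 42 of the members, of which 19 have an adjusted p under 0.05 for any later age against 3M, where 26.7% of all 11826 genes do. In the authors' deposited table the 24M difference from 3M is negative for 33 members and for 18 of the 19, with a median of -0.24 against 0.02 for all its genes. Psmb6 has the smallest adjusted p of the members in the authors' deposited table, 0.0017, with log2 differences from 3M of -0.54 at 12M, -0.24 at 18M and -0.52 at 24M. Psme4 is the exception in sign in the authors' deposited table, at 0.46, 0.15 and 0.29 for the same ages (adjusted p = 0.0355).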

How the data were processed

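RNA-seq of sorted rods was analysed in 16 libraries, 4 per age. Per the submitters' processing notes, kallisto 0.42.5, edgeR 3.13.9, limma 3.32.2 and GRCm38.p4 were used, with no role or order given. The authors deposited estimated counts (expected counts) per transcript, a signal per gene in CPM, a normalized signal in 13 libraries, and a table of comparisons that holds, per the file headers, log2 differences and mean log2 expression, an F statistic (score) and p-values. Further upstream steps were not stated.

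Of 113468 transcripts, 111896 were matched to GENCODE genes of GRCm38 by identifier (0.73% to 1.08% of counts were unmatched), summed to 45038 genes and rounded. Genes that reached 5 CPM in 4 or more libraries entered edgeR 4.0.16 (quasi-likelihood, TMM factors, all 16 libraries, R 4.3.3), with Benjamini-Hochberg adjustment over 12177 genes, and an adjusted p under 0.05 is called. The biological coefficient of variation in common was 0.169. The fit was tested on simulated data. No library pair agreed within sampling noise (lowest chi-square per gene 8.99). P-values judge the age differences against the spread between these libraries, and counting intervals would cover counting error only.

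The members, lists and alternatives were chosen with earlier results of these data known. The rule for members named with tests took every called member and, in each role class, the 2 with the smallest p at 24M against 3M. From the pathway list it took the 4 smallest and Nfe2l1. Other members given with values were chosen after their values were seen. Alternatives were DESeq2 1.42.0, its size factors, other filters, limma 3.58.1 (voom with quality weights, or the authors' gene CPM on log2 with pseudocounts of 0.5 and 2), only the ages compared, coding transcripts only, a replicate block, length or GC slope as covariate, the 13 libraries, and each library left out. The length slope in the 13 libraries, and with coding transcripts only, was added after seeing the data. Protein sequences were not used here. 1 result for a gene of the pathway list is not reported here.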

Additional observations from a re-analysis of the deposited data

Results flagged for a closer look

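In 168 groups of 4 libraries (42 members at 4 ages), 19 had a library whose gap to its nearest neighbour was large for the range of the group. Chance gives about 1 in 20 groups if groups are independent. The members share the same libraries, so these groups are not independent and the count does not test for an excess. 12M replicate 4 was the high library in 13 members, with 20.4 CPM of Psma2, 50.8 of Psma4, 25.3 of Psma6 and 37.6 of Psma7 in the alpha ring, 26.4 of Psmb4 and 41.7 of Psmb6 in the beta ring, and 59.0 of Psmc3, 40.8 of Psmc4 and 51.0 of Psmc5 among the ATPases. In the non-ATPase subunits it had 34.4 CPM of Psmd13, 52.9 of Psmd3, 114 of Psmd4 and 45.3 of Psmd8. Psmb6 stood at 21.3 to 23.8 CPM in the other 12M libraries, and Psmd4 at 74.6 to 76.9.

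24M replicate 3 was low in the ATPases Psmc2, at 82.4 CPM against 111 to 116 in the other 24M libraries, and Psmc6, at 39.2 against 68.7 to 73.8. It was high in Psmd13, at 32.4 CPM against 25.2 to 26.0. 18M replicate 3 was low in Psmc4, at 24.4 CPM against 31.4 to 32.6. These 3 libraries are the ones left out of the authors' normalized table. At 3M, replicate 1 was low in Psmd11, at 49.5 CPM against 56.9 to 57.4, and replicate 3 in Psmg3, at 11.7 against 12.9 to 13.1.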

How the results depend on the processing

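Counts of called members moved with the choice of libraries and with the fit. In the 13 libraries 22 were called at 24M against 3M and 28 at 12M against 3M. For any difference 21 were called and for the linear term 4, all of them lower. In these libraries 29% of all genes were called for any difference (14.5% lower) and 8.57% for the linear term (3.79% lower). With the length slope added there, the counts were 0 at 24M, 1 at 18M and 2 for the linear term. Of all genes, 0.797% were called lower there at 24M, 2.34% at 18M and 2.6% for the linear term. With voom quality weights the members' counts were 21 at 24M, 30 at 12M (27 lower, 3 higher), 2 at 18M, 11 for 18M against 12M (all higher), 2 for 24M against 18M, 28 for any difference and 18 for the linear term. For any difference 27 of the members called by voom were lower and 1 higher. For the linear term all 18 were lower. Over all genes the voom fit called 13.6% lower at 24M, 24.2% lower and 23.6% higher at 12M, and 12.4% higher for 18M against 12M. It called 44.6% for any difference (23.1% lower) and 19.6% for the linear term (9.74% lower). It called 3.76% lower at 18M and 2.97% lower for 24M against 18M. With the GC slope as a covariate the members' counts were 15 at 24M, 2 at 18M, 1 for 24M against 18M, 8 for any difference and 11 for the linear term. Of all genes that fit called 10.3% lower at 24M, 3.71% lower at 18M and 0.575% lower for 24M against 18M. It called 14.4% for any difference (6.83% lower) and 18.4% for the linear term (8.98% lower). The 8 and 11 members called in these tests were all lower. Any difference gave 1 with DESeq2, with the length slope, and with coding transcripts plus the length slope, the last also giving 2 for the linear term. In the same order, 2.28%, 2.94% and 3.09% of all genes were called for any difference and were lower at 24M than at 3M. The last fit called 4.63% of all genes lower for the linear term. The 24M count was 0 with no filter. The linear count was 0 with no filter, with coding transcripts only, on the authors' CPM with either pseudocount, and with the replicate block. Leaving out each library gave 0 to 2 at 24M, 0 to 4 at 12M, 0 to 2 for any difference and 0 to 2 for the linear term, the highest each time lacking 12M replicate 4, save for the linear term (lacking 24M replicate 3). Lacking 12M replicate 4, 2.5% of all genes were called lower at 24M, 2.13% at 12M and 1.86% for any difference. Lacking 24M replicate 3, 3.02% were called lower for the linear term. The cause was not tested.

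Over all the alternatives 19 of the 42 tested members changed sign at least once at 24M against 3M and 23 kept it. Among those that changed, Psmc2 ran over -0.201 to 0.178, Psmc6 over -0.316 to 0.041, Psmd14 over -0.197 to 0.149 and Psmd4 over -0.278 to 0.002. Of the 13 members named by rule, 2 changed sign. The log2 fold change of Psme2 was -0.038 in the 13 libraries, -0.106 with the length slope there, and -0.041 (lowest, lacking 24M replicate 3) to 0.167 with a library left out. That of Psme3 was -0.072 with voom, -0.039 in the 13 libraries, and -0.040 (lowest, lacking 24M replicate 3; -0.027 lacking 3M replicate 1) to 0.092 with a library left out. The other 11 members named by rule kept their sign under every alternative run. Replicate numbers do not pair the libraries: of 24 same-numbered pairs 11 had deviations correlated over 0.1 (-0.744 to 0.726), and 4 of 16 libraries correlated best with their own number. With the replicate block 1 member was called at 24M against 3M, where 1.31% of all genes were called lower. Fits of only the ages compared give no value for any difference or the linear term. Low counts limit Psma8, Psme2b, Psmb10 and Psme1, where no difference was detectable at this depth.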
